A study of Pinus pinaster with 66 samples.

Results

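Transcript ratios were followed for 3 spots of a maritime pine (Pinus pinaster) cDNA array that are described as genes of translation, out of the 8208 spots with deposited values. Spot Q11E4 is described as an elongation factor 1-alpha, spot Q2A8 as a eukaryotic initiation factor 4a, and spot Q17O7 as a 40S ribosomal protein. They were chosen by these descriptions, among 37 spots with a description. The descriptions come from the study, which listed Q11E4 and Q2A8 for correlation with Temperature and Q17O7 for correlation with Whorl on these same arrays. The month pattern of Q11E4 and Q2A8 and the whorl pattern of Q17O7 are therefore given as descriptions with no test, and their direction is not independent evidence. The other dimension was tested for each spot. A choice for close correlation with one variable favours spots that depart little from it. A test that fails in the other dimension, or for month and whorl in combination, is therefore also favoured by the choice. Other spots for genes of translation were not analysed here, because the deposited table holds spot names without gene names. The study also measured Q11E4 by RT-qPCR, and reports good correlation with the arrays for most genes it checked, with a few exceptions.

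Initiation factor 4A is an RNA helicase that opens the leader of a messenger RNA ahead of the small ribosomal subunit. Elongation factor 1-alpha then brings each aminoacyl-tRNA to the ribosome, and the proteins of the 40S subunit form, with its ribosomal RNA, the particle that reads the message. Elongation factor 1-alpha is abundant in plant cells, and its transcript is often taken as a reference in expression studies. Pine needles are kept for several years, so that a branch carries needles that are still growing beside needles that are mature.

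Needles were harvested in 2012 from 6 adult trees, 20 to 25 years old, in a natural forest at 1245 m altitude, with no treatment. Whorl 0 grew in 2012 and was sampled in May, July, September and November, and Whorls 1, 2 and 3, grown in 2011, 2010 and 2009, were sampled in those 4 months and in January and March. RNA of the same 6 trees was pooled in pairs, so each of the 22 groups of month and whorl has 3 pools, and a p-value measures the spread between pools of these trees only. Each array set 1 pool, labelled with Cy3, against a common Cy5 pool of January needles, and all 3 spots had a value on each of the 65 arrays used. For Whorl 2 in November, replicate 2 was not used, following the study's network analysis. This group therefore has 2 arrays.

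Values are log ratios of the sample to the January pool, read here as log2, although the base is not given in the sources used here. The deposited table does not state the direction either. A higher value likely means more transcript in the sample, because the study lists Q11E4 and Q2A8 as positively correlated with Temperature and both are higher here in the warm months. A value of 0 is not the level of January needles, since the January arrays of Whorls 1 to 3 themselves averaged -0.59 for Q11E4, -0.31 for Q2A8 and -0.23 for Q17O7. Only differences between groups are therefore read. In needle RNA, fewer cells of a type and less RNA per cell cannot be told apart, and the tissue could not be checked against marker genes, since both channels held needle RNA and most spots have no gene name. Each array had values for 6519 to 8076 spots.

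The 3 spots fell into 2 patterns. Elongation factor 1-alpha Q11E4 and initiation factor 4a Q2A8 were high from May to September and low in January, March and November in Whorls 1 to 3. In Whorl 0, not sampled in January and March, they were high from May to September and low in November. Spot Q17O7, described as a 40S ribosomal protein, was high in Whorl 0 in all 4 months of its harvest and low in most older needles, whose mean was highest in September. Its ratios followed those of a spot described as a chalcone synthase nearly array by array, with values given at the end. They did so more closely than the ratios of 2 chalcone synthase spots, of different sequence identifiers, followed each other. Whether this bears on the name ribosomal protein for Q17O7 was not tested, and the name is used below only as its description. The 22 group means spanned 2.04 on the log2 scale for Q11E4, with an SD between pools within groups of 0.20. They spanned 1.01 for Q2A8, with an SD of 0.15, and 2.28 for Q17O7, with an SD of 0.26. Among Whorls 1 to 3, differences between months made up 96.5% of the variance between group means for Q11E4 and 94.8% for Q2A8, against 35.4% for Q17O7 and a median of 79.2% over 7276 spots. In the 4 months with Whorl 0, differences between whorls made up 2.49% of that variance for Q11E4, 3.33% for Q2A8 and 75.2% for Q17O7, against a median of 18.1% over 7187 spots.

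**Figure D1:**
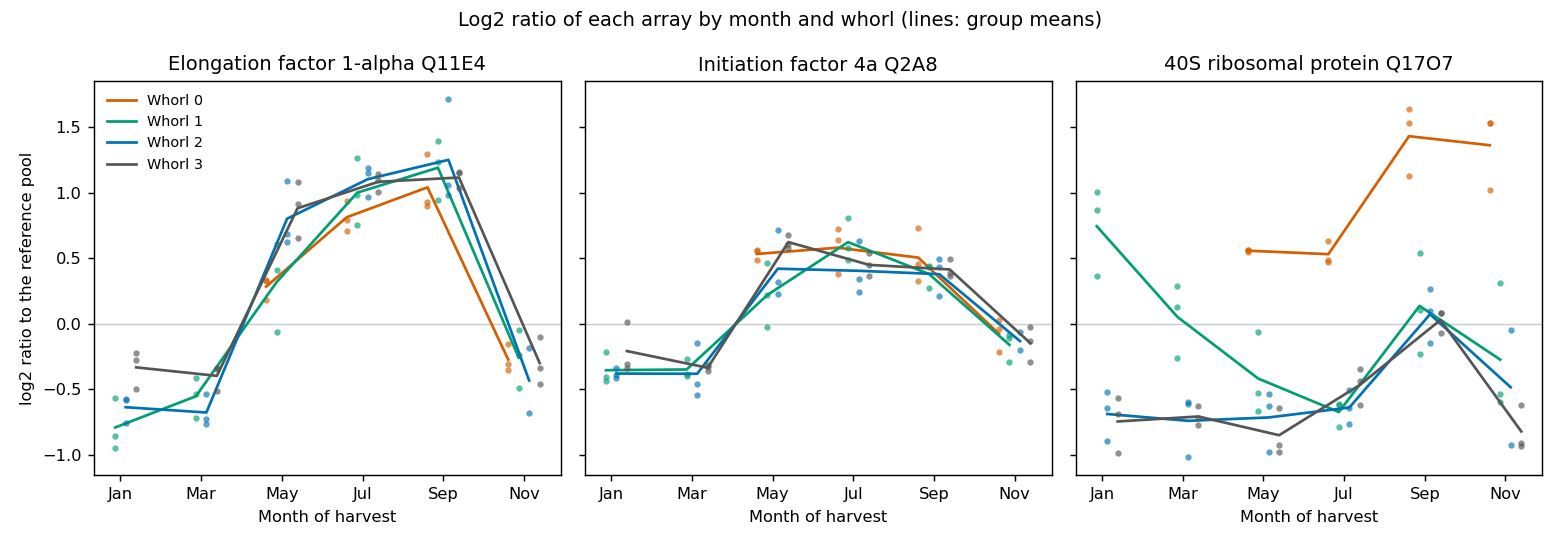
Log2 ratio to the January reference pool of elongation factor 1-alpha Q11E4, initiation factor 4a Q2A8 and 40S ribosomal protein Q17O7 (y axis) by month of harvest (x axis); each point is 1 array, colours are whorls and lines join group means. Q11E4 and Q2A8 move with the month in all whorls, while the Whorl 0 arrays of Q17O7 lie above all older needles of the same month.

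Elongation factor 1-alpha Q11E4 had the wider seasonal range of the 2 translation factors. In Whorls 1 to 3, its 9 arrays of January ran between -0.95 and -0.22 with a median of -0.57, and those of March between -0.77 and -0.34 with a median of -0.53. The 9 arrays of May ran between -0.06 and 1.09 with a median of 0.65, those of July between 0.75 and 1.27 with a median of 1.10, and those of September between 0.95 and 1.72 with a median of 1.15. The 8 arrays of November ran between -0.68 and -0.05 with a median of -0.29. The highest array of November thus met the lowest array of May, and every array of July and September lay above every array of January, March and November. In the order of the monthly means, September at 1.19 came first, followed by July at 1.06, May at 0.67, November at -0.32, March at -0.54 and January at -0.59, and the array ranges of each neighbouring pair overlapped.

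Averaged over May, July and September against January, March and November, Q11E4 was 1.46 higher in the warm months in Whorls 1 to 3. Of the 7276 spots with these groups, 74.9% passed the test of this comparison in either direction, and 11 had a larger absolute difference than Q11E4. Since the study chose Q11E4 for Temperature, these values describe the choice. By whorl, the same difference was 1.37 in Whorl 1, 1.64 in Whorl 2 and 1.37 in Whorl 3. Whorl 0 followed the same course. Its May arrays had 0.34, 0.33 and 0.18, its July arrays 0.71, 0.79 and 0.94, its September arrays 1.30, 0.93 and 0.90, and its November arrays -0.31, -0.16 and -0.36. The ranges of July and September overlapped, and the November arrays were the only ones of Whorl 0 below 0.

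The question of needle age was tested for Q11E4 within each month, as Whorl 0 minus the mean of Whorls 1 to 3, with limma over all spots and Benjamini-Hochberg adjustment. In May, Q11E4 stood at 0.34, 0.33 and 0.18 in Whorl 0, against 0.41, 0.61 and -0.06 in Whorl 1, 0.63, 0.69 and 1.09 in Whorl 2, and 0.65, 0.91 and 1.08 in Whorl 3. The Whorl 0 arrays lay below every array of Whorls 2 and 3 and within the range of Whorl 1. The difference was -0.38 ± 0.13 (SE, limma adjusted p = 0.0122, 95% interval -0.65 to -0.12), in a month when 52.3% of the 7752 spots tested passed. Q11E4 was lower in Whorl 0 than in the older needles of the same replicate number in 3 of 3 pools, with differences of -0.23, -0.41 and -0.52. The May call was lost without replicate 2 (-0.37, adjusted p = 0.106) and without replicate 3 (-0.32, adjusted p = 0.0570), and it was kept without replicate 1 (-0.46, adjusted p = 0.0113).

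In the later months the difference between Whorl 0 and older needles did not pass the test for Q11E4. It was -0.25 in July (limma adjusted p = 0.131, 95% interval -0.51 to 0.01), when 35.1% of 7464 spots passed. It was -0.15 in September (limma adjusted p = 0.583, 95% interval -0.41 to 0.12), when 7.44% of 7433 spots passed. In November it was 0.06 (limma adjusted p = 0.918, 95% interval -0.21 to 0.33), when 4.16% of 7492 spots passed. The intervals of July and September include the difference seen in May, and that of November does not. The July difference passed with quantile normalization (-0.45, adjusted p = 0.0160) and without replicate 3 (-0.37, adjusted p = 0.0393), and with quantile normalization the September difference was -0.41 (adjusted p = 0.0818). The change of the difference between November and May, tested directly, was 0.44 ± 0.19 (SE, limma adjusted p = 0.0678) and missed the threshold, which 30.1% of 7442 spots passed. That test passed under 4 of 9 alternative settings, so it stands near the limit.

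Among the older needles, Q11E4 averaged 0.19 ± 0.07 higher in Whorl 3 than in Whorl 1 over the 6 months (SE, limma adjusted p = 0.0503, 95% interval 0.06 to 0.32). The difference missed the threshold by a small margin and passed in 5 of 9 alternative settings, with an adjusted p of 0.0359 under a replicate block, against 10.5% of 7366 spots that passed. Without replicate 3 it was 0.06 with an adjusted p of 0.716, so its size depended on that replicate. By month it was unequal, though single months were not tested. In January, Q11E4 had -0.27, -0.50 and -0.22 in Whorl 3, against -0.57, -0.95 and -0.86 in Whorl 1, and these ranges did not overlap. In May the means of Whorl 3 and Whorl 1 were 0.88 ± 0.22 and 0.32 ± 0.35 (SD, n = 3 each). In September the order was turned, with means of 1.12 ± 0.07 in Whorl 3 and 1.19 ± 0.23 in Whorl 1 (SD, n = 3 each). The seasonal difference itself did not measurably differ between these whorls. Whorl 3 minus Whorl 1 changed by -0.0005 between warm and cold months (limma adjusted p = 0.999, 95% interval -0.26 to 0.26), a test that 0.57% of 7366 spots passed. Because the study chose Q11E4 for Temperature, a small change here is favoured by the choice.

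Initiation factor 4a Q2A8 had the same seasonal course at a smaller size. In Whorls 1 to 3, the January arrays ran between -0.44 and 0.02 with a median of -0.34, and the March arrays between -0.54 and -0.14 with a median of -0.36. Those of May ran between -0.02 and 0.71 with a median of 0.46, those of July between 0.24 and 0.81 with a median of 0.48, and those of September between 0.21 and 0.50 with a median of 0.43. The November arrays ran between -0.29 and -0.02 with a median of -0.12. Among the monthly means, July at 0.49, May at 0.42 and September at 0.39 were close together and their ranges overlapped, and September and November, at -0.15, were neighbours in this order whose ranges did not overlap. January at -0.31 and March at -0.36 closed the order, with overlapping ranges.

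In the warm months Q2A8 averaged 0.71 higher than in the cold months in Whorls 1 to 3, and 166 of 7276 spots had a larger absolute difference. The difference was nearly equal in the 3 whorls, at 0.70 in Whorl 1, 0.70 in Whorl 2 and 0.73 in Whorl 3. As for Q11E4, these values describe how the study chose the spot. In Whorl 0, the May arrays of Q2A8 had 0.55, 0.48 and 0.56, the July arrays 0.38, 0.72 and 0.64, the September arrays 0.73, 0.45 and 0.33, and the November arrays -0.22, -0.04 and 0.03. The 9 arrays of May to September lay above the 3 arrays of November.

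No difference with needle age passed the test for Q2A8. Whorl 0 minus Whorls 1 to 3 was 0.11 in May (limma adjusted p = 0.339, 95% interval -0.08 to 0.31) and 0.09 in July (limma adjusted p = 0.497, 95% interval -0.11 to 0.28). The September difference was 0.11 (limma adjusted p = 0.555, 95% interval -0.08 to 0.31) and the November difference 0.07 (limma adjusted p = 0.845, 95% interval -0.13 to 0.27). The ranges of Whorl 0 and older needles overlapped in each of these months, and the intervals include differences of up to 0.31. In May, where 52.3% of all spots passed, Q2A8 had 0.55, 0.48 and 0.56 in Whorl 0, against 0.46, 0.22 and -0.02 in Whorl 1, 0.23, 0.32 and 0.71 in Whorl 2, and 0.58, 0.61 and 0.68 in Whorl 3. The Whorl 0 arrays lay above all Whorl 1 arrays and below all Whorl 3 arrays of that month. The change of the Whorl 0 difference between November and May was -0.04 (limma adjusted p = 0.854), Whorl 3 minus Whorl 1 was 0.07 (limma adjusted p = 0.385), and the change of Whorl 3 minus Whorl 1 between warm and cold months was 0.03 (limma adjusted p = 0.944). None of these tests of Q2A8 passed under any of the 9 alternative settings. Tests that fail are again favoured by the choice of Q2A8 for Temperature.

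**Figure D2:**
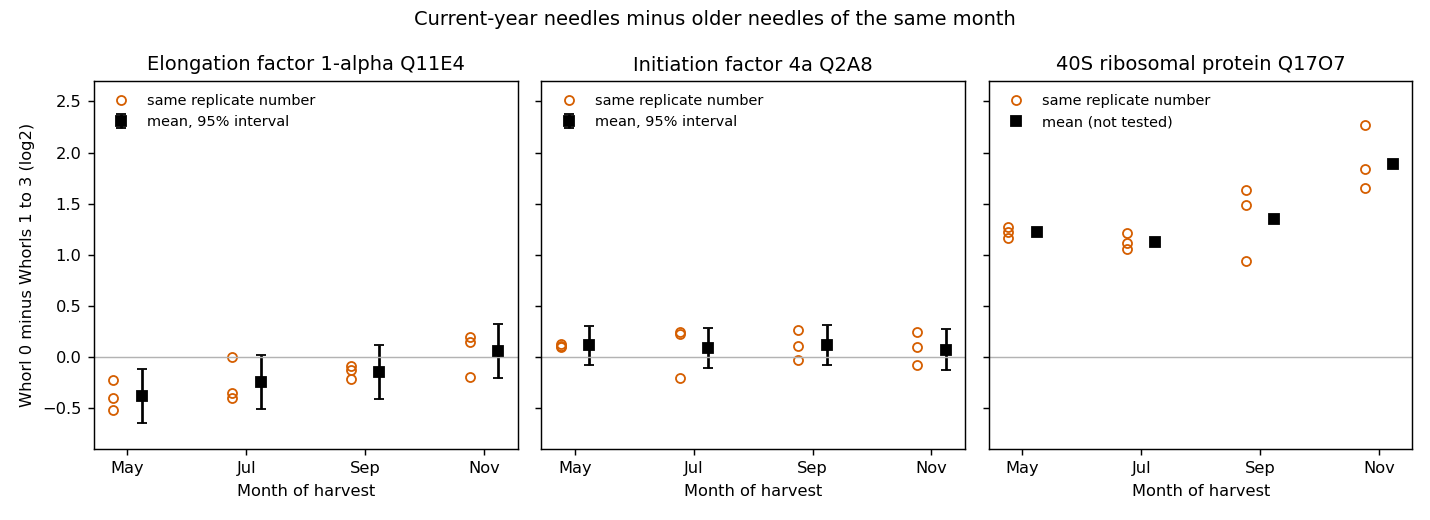
Whorl 0 minus the mean of Whorls 1 to 3 of the same month (y axis, log2) for elongation factor 1-alpha Q11E4, initiation factor 4a Q2A8 and 40S ribosomal protein Q17O7, by month of harvest (x axis); circles are differences within 1 replicate number, squares the means, with 95% intervals from limma where a test was made. Q11E4 lies below 0 in May, the intervals of Q2A8 include 0 in all 4 months, and the means of Q17O7 lie between 1.13 and 1.89.

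The 2 translation factors moved together. Across the 22 group means, Q11E4 and Q2A8 had a Pearson correlation of 0.927, and across the 18 groups of Whorls 1 to 3 it was 0.957. The groups share trees, reference pool and season, and the arrays fall into a warm and a cold cluster, and both spots were chosen for their month pattern, so this correlation is a description. Deviations of the 65 arrays from their group means, which hold no month or whorl difference, correlated at 0.603. No background over all other pairs of spots was computed for that value, so it is a description as well. Among the arrays of May, replicate 3 of Whorl 1 was lowest for both spots, at -0.06 for Q11E4 and -0.02 for Q2A8, beside the cold-month arrays. Among 7172 other spots, Q2A8 ranked 29 in closeness to the group means of Q11E4. Q17O7 was not part of this pattern, with correlations of 0.089 with Q11E4 and 0.151 with Q2A8 over the same groups.

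**Figure D3:**
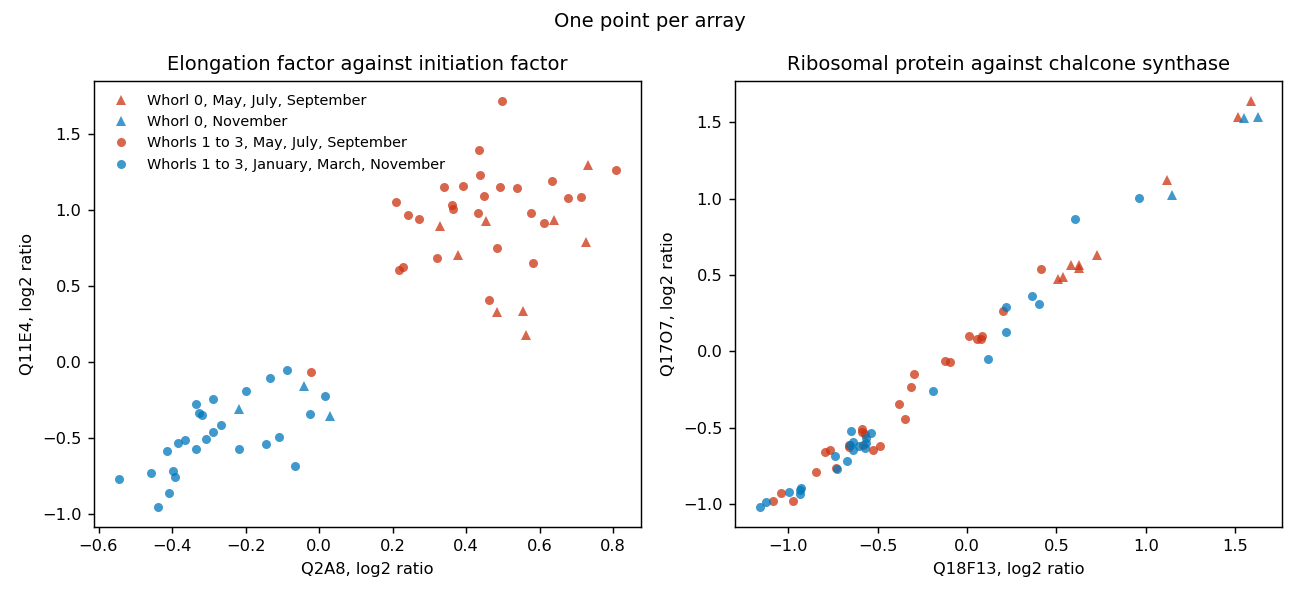
Left, Q11E4 (y axis) against Q2A8 (x axis); right, Q17O7 (y axis) against the chalcone synthase spot Q18F13 (x axis); all axes are log2 ratios to the January pool and each of the 65 points is 1 array, with triangles for Whorl 0, circles for Whorls 1 to 3, red for May, July and September and blue for January, March and November. On the left the arrays form a warm and a cold cluster with 1 May array of Whorl 1 beside the cold one, and on the right they lie along the diagonal with a difference of 0.01 ± 0.08 (SD).

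Spot Q17O7, the 40S ribosomal protein by its description, was highest in the current-year needles within each month of their harvest. In May, Q17O7 had 0.56, 0.54 and 0.57 in Whorl 0, against -0.98 to -0.06 with a median of -0.64 in the 9 arrays of Whorls 1 to 3. In July it had 0.49, 0.63 and 0.47 in Whorl 0, against -0.79 to -0.34 with a median of -0.62 in the older needles. The Whorl 0 arrays of these months stood close together and well above all older needles of the same month. In September the values were 1.13, 1.53 and 1.64 in Whorl 0, against -0.23 to 0.54 with a median of 0.08 in Whorls 1 to 3. In November they were 1.02, 1.53 and 1.54 in Whorl 0, against -0.94 to 0.31 with a median of -0.61 in the 8 older arrays. The ranges of Whorl 0 and older needles overlapped in none of the 4 months.

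As a difference of means, Q17O7 was 1.22 higher in Whorl 0 in May, where 290 of 7752 spots had a larger absolute difference. It was 1.13 higher in July (113 of 7464 spots larger), 1.35 higher in September (15 of 7433) and 1.89 higher in November (9 of 7492). Because the study chose Q17O7 for Whorl, these differences were not tested, but their change between months was. The difference was 0.67 ± 0.24 larger in November than in May (SE, limma adjusted p = 0.0260, 95% interval 0.19 to 1.15), and 30.1% of the spots passed this test. Within replicate numbers, the Whorl 0 difference of November was 1.83, 2.27 and 1.66, against 1.28, 1.22 and 1.17 in May, and these ranges did not overlap. The call was lost without replicate 1 (adjusted p = 0.0945), without replicate 2 (adjusted p = 0.262) and when the spread was taken from the compared groups alone (adjusted p = 0.0783).

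Older needles were not all alike for Q17O7, and the youngest of them stood apart in winter. In January, when Whorl 1 was the youngest whorl harvested, Q17O7 had 0.87, 1.01 and 0.36 in Whorl 1, against -0.90, -0.52 and -0.65 in Whorl 2 and -0.99, -0.69 and -0.57 in Whorl 3. In March it had 0.13, 0.29 and -0.26 in Whorl 1, and no array of Whorls 2 and 3 was above -0.60. Whorl 1 was separate from both older whorls in these 2 months. In May the arrays of Whorl 1 at -0.66, -0.06 and -0.53 overlapped with those of Whorls 2 and 3, which ran between -0.98 and -0.54. In July Whorl 1, with -0.79, -0.62 and -0.61, was no longer above the others. Whorl 1 minus the mean of both older whorls was largest in January, at 1.46, followed by 0.78 in March and 0.37 in May. It was then -0.12 in July, 0.09 in September and 0.38 in November. Across months, the January mean of Whorl 1, at 0.74, was above the Whorl 0 means of 0.56 in May and 0.53 in July.

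Over the 6 months, Whorl 3 minus Whorl 1 averaged -0.52 for Q17O7, again a description of the choice, and 17 of 7366 spots had a larger absolute difference. The seasonal difference of Q17O7 was unequal between whorls. Warm minus cold months was 0.33 in Whorl 3 and 0.21 in Whorl 2, against -0.49 in Whorl 1. The change of Whorl 3 minus Whorl 1 between warm and cold months, tested directly, was 0.82 ± 0.17 (SE, limma adjusted p = 0.0106, 95% interval 0.49 to 1.16). Only 0.57% of the 7366 spots passed this test, and 7 had a larger absolute change. Without replicate 1 the adjusted p was 0.122 and without replicate 2 it was 0.226, with changes of 0.81 and 0.79, while leaving out replicate 3 kept the call. Averaged over Whorls 1 to 3 the warm and cold months did not measurably differ, with a difference of 0.02 (limma adjusted p = 0.842, 95% interval -0.12 to 0.15), in a comparison that 74.9% of all spots passed.

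September was the month of the highest mean of Q17O7 in Whorls 0, 2 and 3, and January in Whorl 1. Its September arrays were 0.54, -0.23 and 0.10 in Whorl 1, 0.10, -0.15 and 0.27 in Whorl 2, and -0.07, 0.08 and 0.08 in Whorl 3. In September the older needles were 0.67 ± 0.12 higher than in July (SE, limma adjusted p = 5.1e-06, 95% interval 0.44 to 0.91), a step that 44.9% of 7403 spots passed. Each of the 9 September arrays of older needles was above each of the 9 in July. November minus September was -0.61 ± 0.12 in the older needles (SE, limma adjusted p = 4.2e-05, 95% interval -0.85 to -0.36), a step that 58.7% of 7375 spots passed. Without replicate 1 the November step was -0.34 with an adjusted p of 0.0546, and the September step passed under all 9 alternative settings. These p-values count arrays that share month and replicate number as independent. With pool within month as a random block, limma adjusted p was 0.000121 for the September step and 0.000448 for the November step.

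In Whorl 0, Q17O7 was 0.90 ± 0.20 higher in September than in July (SE, limma adjusted p = 0.000657, 95% interval 0.49 to 1.31), and 22% of 7448 spots passed. No later step was measurable, with November minus September at -0.07 (limma adjusted p = 0.818, 95% interval -0.48 to 0.34), a step that 37.3% of 7486 spots passed. July minus May in Whorl 0 was -0.03 (limma adjusted p = 0.945, 95% interval -0.44 to 0.38), and 25.4% of 7534 spots passed. The current-year needles thus had 1 step that passed, between July and September. Whether the step of Whorl 0 differed in size from that of older needles was not tested.

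The other steps of Q17O7, averaged over Whorls 1 to 3, did not pass. March minus January was -0.24 (limma adjusted p = 0.119), and 31.6% of 7762 spots passed. May minus March was -0.20 (limma adjusted p = 0.147), and 59.4% of 7744 spots passed. Among the alternative settings, May minus March passed only without replicate 3 (-0.33, limma adjusted p = 0.0243). July minus May was 0.07 (limma adjusted p = 0.691), and 34.3% of 7558 spots passed. These averages join whorls with unlike courses. From January through March to May, Whorl 1 had means of 0.74, 0.05 and -0.42, Whorl 2 of -0.69, -0.74 and -0.72, and Whorl 3 of -0.75, -0.71 and -0.85. Across the year, November minus January was -0.30 ± 0.12 for Q17O7 (SE, limma adjusted p = 0.0454), and 42.2% of 7519 spots passed. That call was lost without replicate 1 (-0.14, adjusted p = 0.517) and without replicate 2 (-0.15, adjusted p = 0.468), and it covers the high January values of Whorl 1. It was also lost with pool within month as a random block (-0.30, adjusted p = 0.1003) and with only the groups compared (adjusted p = 0.145). Of the 6 comparisons between months of Q17O7 in older needles, 3 passed, and this one passed in 5 of 9 alternative settings.

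**Figure D4:**
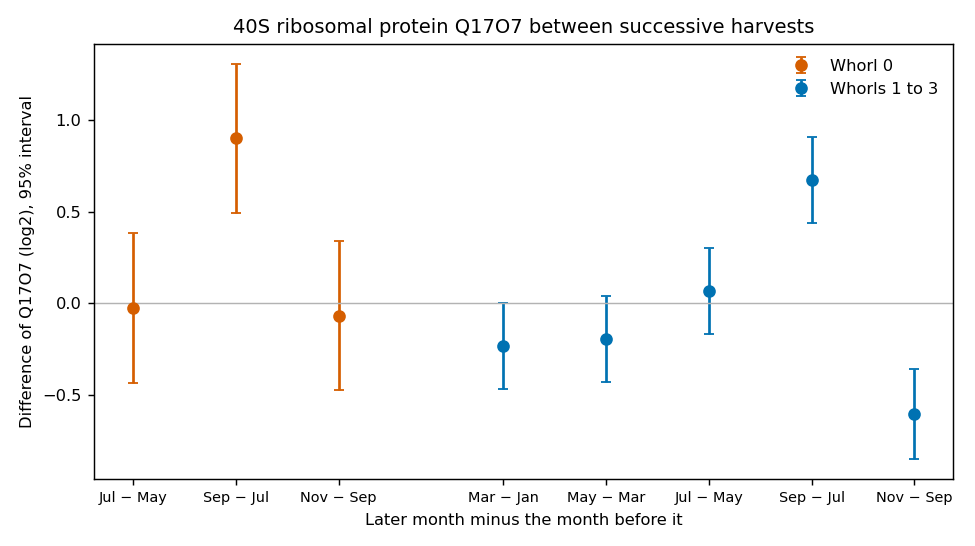
Difference of the 40S ribosomal protein Q17O7 between each harvest and the one before it (y axis, log2, with 95% limma intervals), for Whorl 0 and for the mean of Whorls 1 to 3 (x axis, later minus earlier month). Both sets of needles have a step above 0 between July and September, at 0.90 and 0.67, and the November step is -0.61 in older needles, with an interval below 0, and -0.07 in Whorl 0, with an interval that includes 0.

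The spots that followed the 3 transcripts most closely were found as the 5 with the highest Pearson correlation over the 22 group means, among 7173 spots. For Q11E4 the closest was Q12A24 at 0.967, followed by Q17F2, Q17A4, Q4F1 and Q12L4, all at 0.949 or above. For Q2A8 the closest was Q20C23 at 0.987, followed by Q18I6, Q15E10, Q1K1 and Q11E23, all at 0.958 or above. None of these has a description here apart from Q1K1, an unknown protein. For Q17O7 the closest was Q18F13, a chalcone synthase, at 0.997. It was followed by Q17L11, an armadillo repeat protein, at 0.985, Q15I18, without description, at 0.979, Q15M17, also a chalcone synthase, at 0.978, and Q17D13, without description, at 0.969. Chalcone synthase is the first enzyme of flavonoid synthesis. The study lists Q18F13, Q17L11 and Q15M17 beside Q17O7 for correlation with Whorl, and Q1K1 beside Q2A8 for correlation with Temperature. Closeness of these spots over the group means is therefore favoured by the choice and is a description.

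The 40S ribosomal protein spot Q17O7 and the chalcone synthase spot Q18F13 gave nearly the same ratio on each array. On the 65 arrays their ratios differed by 0.01 ± 0.08 (mean ± SD, Q17O7 minus Q18F13), with a lowest difference of -0.17 and a highest of 0.27. Their deviations from the group means, from which month and whorl are removed, correlated at 0.968. By comparison, the 2 chalcone synthase spots Q18F13 and Q15M17 differed by -0.15 ± 0.26 (mean ± SD, Q18F13 minus Q15M17), and their deviations correlated at 0.905. The study lists these 2 spots under different sequence identifiers, so they do not show how closely spots of 1 transcript follow each other. Q17O7 and Q15M17 differed by -0.14 ± 0.26 (mean ± SD, Q17O7 minus Q15M17), and their deviations correlated at 0.862. Q17O7 and the armadillo repeat spot Q17L11 differed by -0.01 ± 0.15 (mean ± SD, Q17O7 minus Q17L11), and their deviations correlated at 0.895. Of 7173 spots, 2 had a closer nearest neighbour than Q17O7 has in Q18F13, and the median over spots was 0.913. Q2A8 and its nearest spot Q20C23 had deviations that correlated at 0.516, and for Q11E4 and Q12A24 the value was 0.074. Which transcript spot Q17O7 measures was not tested.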

How the data were processed

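Amplified needle RNA of each pool (Cy3) was hybridised with a common January pool (Cy5) on cDNA arrays whose spots were printed 2 times. The sample labels name other months for the reference in 1 field, but its source and harvest date give January. The deposited values are log ratios that the authors preprocessed and normalized with BABAR (version not given in the sources used here), treated here as log2, and the median of every array is 0. They run from -4.49 to 6.41.

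Of 8208 spots, 7809 had values on at least 0.5 of the 65 arrays and were kept. Each of the 22 groups had its own mean in a fit with limma 3.58.1 (R 4.3.3). The main fit had no block, so arrays that share month and replicate number counted as independent. With pool within month as a random block, their correlation was 0.225. Adjusted p of the month steps of Q17O7 over Whorls 1 to 3 then rose, to 0.000121 (limma) for September minus July. For Q11E4 and Q2A8, those of whorl differences within a month fell. A spot was tested where every group compared had a value, and passed at a Benjamini-Hochberg adjusted p under 0.05 over all spots tested. Warm months are May, July and September. Descriptions used Python 3.11.15, numpy 2.4.6 and pandas 2.3.3. Variance between group means was divided by sums of squares.

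The named spots are the 3 translation spots and the 5 spots most correlated with each. Members and comparisons were chosen with earlier results of these data known. Replicate numbers were taken to pair the samples, because the study ties a number to an individual. Deviations from group means of arrays that share month and number correlated at a mean of 0.279 (87 pairs, 68 of them above 0.1). Those of unlike numbers correlated at -0.139 (174 pairs). Deviations cancel within a group, so this second value largely follows from the first and is not separate evidence. Alternatives were the left-out array returned, quantile normalization, only spots complete on all arrays, a fixed replicate block, pool within month as a random block, only the groups compared, and each replicate number left out. On simulated data with 5823 spots, 74% of changes of 0.3 and 94% of changes of 0.5 were found for Whorl 0 against older needles in May, with 9 false calls, and 87% and 97% for May against March in Whorls 1 to 3, with 6 false calls. The simulated spread was independent between arrays and few spots were changed, unlike in the data. These rates therefore do not carry over to the data.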

Additional observations from a re-analysis of the deposited data

Results flagged for a closer look

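For the 40S ribosomal protein Q17O7, the difference between Whorl 0 and Whorls 1 to 3 was unequal in 2 months of the year, by a test of the difference itself: it was 0.67 ± 0.24 larger in November than in May (SE, limma adjusted p = 0.0260). The seasonal difference of Q17O7 was also unequal in 2 whorls, since Whorl 3 minus Whorl 1 was 0.82 ± 0.17 larger in the warm than in the cold months (SE, limma adjusted p = 0.0106). By month, Whorl 3 minus Whorl 1 of Q17O7 was -1.49 in January, -0.76 in March and -0.55 in November. It was -0.43 in May, 0.21 in July and -0.11 in September, so the value of May lay near that of November. Both calls were lost without replicate 1 and without replicate 2. The spread behind both tests comes from 3 pools of the same 6 trees.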

How the results depend on the processing

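The 33 results of the 3 spots were recomputed under 9 alternatives, and of 234 values of the 26 tested results, 196 kept direction and side of the threshold. Of 63 values of the 7 results without a test, 62 moved by less than the spread between pools. In all, 14 values changed sign, all of results that had not passed. Sets of 3 pools of 6 trees limit the precision. With the replicate block, which pairs samples by number, 1 call changed: Whorl 3 minus Whorl 1 of Q11E4 stayed at 0.19 and passed. It also passed at 0.19 over spots complete on all arrays, with pool within month as a random block, and with only the groups compared. November minus May of the Whorl 0 difference of Q11E4 passed at 0.50 with the left-out array returned, at 0.55 with quantile normalization, and at 0.44 with the random block. The Whorl 0 difference of Q11E4 in July passed at -0.45 with quantile normalization. For Q17O7, November minus May of the Whorl 0 difference no longer passed at 0.67 with only the groups compared, and November minus January at -0.30 with that setting and with the random block. With quantile normalization, the Whorl 0 difference of Q17O7 in September was 1.09.

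Changes of sign with quantile normalization were those of Q2A8, Whorl 0 difference, in May (-0.055), July (-0.059) and November minus May (0.12), and of Q17O7 for November minus September in Whorl 0 (0.10). With the array returned, November minus May of Q2A8 was 0.0017. The causes were not tested.

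Leaving out 1 replicate number gave -0.46 to -0.32 for the May difference of Q11E4, -0.37 to -0.17 for July, -0.027 to 0.23 for November, and 0.29 to 0.69 for November minus May. Whorl 3 minus Whorl 1 of Q11E4 was 0.059 to 0.26, and its warm minus cold change -0.071 to 0.054. For Q2A8 these were -0.0029 to 0.11 and -0.00026 to 0.074, and November minus May was -0.11 to 0.031. For Q17O7, November minus May of the Whorl 0 difference was 0.52 to 0.83, the warm minus cold change of Whorl 3 minus Whorl 1 0.79 to 0.87, and warm minus cold -0.071 to 0.076. May minus March of Q17O7 was -0.33 to -0.11, November minus September -0.85 to -0.34, November minus January -0.60 to -0.14, and July minus May in Whorl 0 -0.084 to 0.0058.

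Of 153 counts of spots over all comparisons, 31 moved by over 1.5 times. The largest shifts were in the warm minus cold change of Whorl 3 minus Whorl 1, with 42 spots in the main setting, 195 with the random block, 98 with quantile normalization, 27 with the array returned and 0 to 21 without 1 replicate number (the 0, by limma, goes with 636 spots at an unadjusted p under 0.05). Whorl 0 gave 553 spots in September and 932 with the random block, and 312 in November, with 529 under the random block, 489 under quantile normalization and 155 with only the groups compared. Whorl 3 minus Whorl 1 gave 776 and 1274 with the random block. In Whorl 0, July minus May gave 1914 and September minus July 1642, against 929 and 932 with quantile normalization, and November minus September 2795, against 1540 with only the groups compared. The others came from leaving out 1 replicate number, down to 1182 from 2622 in July, 252 in September, 158 in November, 356 for Whorl 3 minus Whorl 1, 1398 from 2237 for November minus May, 1364 from 2450 for March minus January, 1443 from 2594 for July minus May, and in Whorl 0 1124, 1003 and 1379 for its 3 steps.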
